A study of Mus musculus with 15 samples.

Results

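The nuclear-encoded subunits of the mitochondrial respiratory chain and ATP synthase were examined in mouse optic tissue grown from embryonic stem cells. Members were taken by gene symbol (Nduf a, b, c, s or v with a number, Sdh a to d, Uqcr, Cox 4 to 8 and Atp5), which gave 84 of the 23244 entries of the expression table. The symbols place 37 members in complex I (Nduf), 4 in complex II (Sdh), 8 in complex III (Uqcr), 18 in complex IV (Cox) and 17 in complex V (Atp5). The complex I counts thus include Ndufa4, now placed in complex IV, and Ndufa4l2, which resembles it. The rule used symbols and no measured values. It takes in a few genes that are not classical subunits, such as Atp5s, Atp5sl, Cox7a2l and Ndufa4l2, and it leaves out Cyc1, Cycs and Ndufab1. No entry for a gene of the mitochondrial genome is among the members.

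All tissue came from the EB5 Rx::GFP+/- line, a reporter line of mouse embryonic stem cells, grown by the floating aggregate method SFEBq, so the reporter allele is shared by every group. Day 10 Rx::GFP+ tissue, the starting explant, was cultured further under either stimulus, and 5 groups of 3 biological replicates were sequenced, 15 libraries in all. The +Wnt groups received CHIR99201, an inhibitor of GSK3, at 3 µM for 24 hours and at 1 µM afterwards, and were collected at Day 12 and Day 15. The +Fgf groups received human recombinant bFgf at 5 ng/mL in medium with 10% FBS and were collected on the same days. Per the paper, the stem cells behind all groups were kept before differentiation in medium with CHIR99201 at 3 µM and another inhibitor. Serum was in the +Fgf medium only, so the factor and the serum cannot be told apart, and there was no unstimulated group at Day 12 or Day 15. The +Wnt tissue is a model of retinal pigment epithelium and the +Fgf tissue one of neural retina, and neither is a pure population.

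Electrons from NADH enter the respiratory chain at complex I and those from succinate at complex II. Both pass through ubiquinone to complex III and through cytochrome c to complex IV, which reduces oxygen. Complexes I, III and IV pump protons across the inner mitochondrial membrane, and complex V, the ATP synthase, uses the gradient to make ATP. Most subunits are encoded in the nucleus and imported, and several exist as alternative isoforms that replace each other by tissue or oxygen supply. In the eye, photoreceptors and pigment epithelium are known for heavy use of oxygen, whereas retinal progenitors are known for a glycolytic metabolism.

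The libraries held 12556998 to 16175450 reads in genes, and 1 read was worth 0.0620 to 0.0764 CPM (reads of an entry scaled to the depth of the library). Neural retina progenitor markers (6 of 6 detected in every group) summed to 1887 to 2015 CPM in Day 12 +Fgf and 719 to 769 CPM in Day 12 +Wnt. Pigment epithelium markers (8 listed) summed to 236 to 307 CPM in Day 15 +Fgf and 5267 to 6807 CPM in Day 15 +Wnt, where Rpe65, which defines the mature epithelium, was at 0. Retinal ganglion cell and early neuron markers, 8 of 8 detected, summed to 85.6 to 152 CPM at Day 10. Their sums were 297 to 322 and 565 to 796 CPM in Day 12 +Fgf and +Wnt, and 1800.1 to 1935 and 1259.6 to 1581 CPM in Day 15 +Fgf and +Wnt. These markers did not move as 1 set in the test described below. In +Fgf against +Wnt, 3 were higher and 5 lower at Day 12, and 5 higher and 1 lower at Day 15. From Day 12 to Day 15 in +Wnt, 6 rose and 2 fell. Proliferation markers, 6 of 6 detected, summed to 906 to 966 CPM in Day 15 +Wnt against 2253 to 2381 CPM in Day 15 +Fgf. Photoreceptor precursor markers (6 listed) summed to 484 to 561 CPM in Day 15 +Fgf and 242 to 266 CPM in Day 15 +Wnt. At Day 12 the order was the reverse, with 96.7 to 126 CPM in +Fgf and 268 to 275 CPM in +Wnt. Neural crest and mesenchyme markers (6 listed) summed to 43.8 to 55.8 CPM in Day 15 +Fgf and 161 to 194 CPM in Day 15 +Wnt. The study lists its lowest RNA integrity numbers for Day 15 +Fgf. It also lists lower numbers for all Day 10 libraries than for all Day 12 libraries. Cell type markers thus moved with the groups compared below, and RNA integrity with comparisons that include Day 10 or Day 15 +Fgf. Their part in the results was not tested beyond the fit that includes RNA integrity.

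Of the 84 members, 80 passed the filter of at least 1 CPM in at least 3 libraries and were tested with limma on log2(CPM + 0.3), with Benjamini-Hochberg adjustment over the 13845 entries that passed and a threshold of 0.05. Differences are on that log2 scale, which understates the change of low genes, and stand with their standard error, whereas CPM values stand with the SD over 3 libraries. Differences between the stimuli are +Fgf minus +Wnt. The remaining 4 members, Cox6a2, Cox7b2, Cox8b and Cox8c, had between 0 and 3 reads in every library, and a count of 0 allows up to 3 reads, or 0.192 to 0.229 CPM depending on the group. Cox6a2 and Cox8b are isoforms known from heart and skeletal muscle, and Cox7b2 and Cox8c are known from testis. In contrast, 75 members were above 10 CPM in all 15 libraries, and the median member had 1148 reads in its lowest library.

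Complex V had the highest median level. Per kb of transcript, taking the longest annotated transcript of the entry, the median level over tested members was 84.0 CPM per kb in complex I, 102 in complex II, 153 in complex III, 204 in complex IV and 275 in complex V. The highest levels per kb belonged to Atp5b, the catalytic beta subunit of ATP synthase, at 721 CPM per kb, followed by Cox4i1, Atp5l, Uqcrh and Atp5a1 at 440.0, 439, 435 and 433. Atp5s had the lowest level of the tested members, 4.41 CPM per kb. Atp5b and Atp5a1, the alpha subunit, also had the most reads, with a mean over 15 libraries of 1382 and 1069 CPM.

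All members together took 1.15% ± 0.0501 of the reads at Day 10, 1.14% ± 0.00947 in Day 12 +Fgf, 1.34% ± 0.0503 in Day 12 +Wnt, 1.13% ± 0.00615 in Day 15 +Fgf and 1.35% ± 0.0713 in Day 15 +Wnt (SD, n = 3). Their summed levels were 12641, 11956 and 11813 CPM at Day 10, 11636, 11576 and 11679 in Day 12 +Fgf and 12636, 13692 and 13516 in Day 12 +Wnt. At Day 15 they were 11145, 11235 and 11316 CPM in +Fgf and 13304, 11916 and 12772 in +Wnt. The +Wnt libraries were above the +Fgf libraries of the same day without overlap, and the spread was wider in +Wnt, where Day 12 replicate 1 and Day 15 replicate 2 were lowest. At Day 12, +Wnt replicate 1 was no higher than Day 10 replicate 1. In tissue with many cell types, fewer cells of a type and less RNA per cell cannot be told apart.

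**Figure D1:**
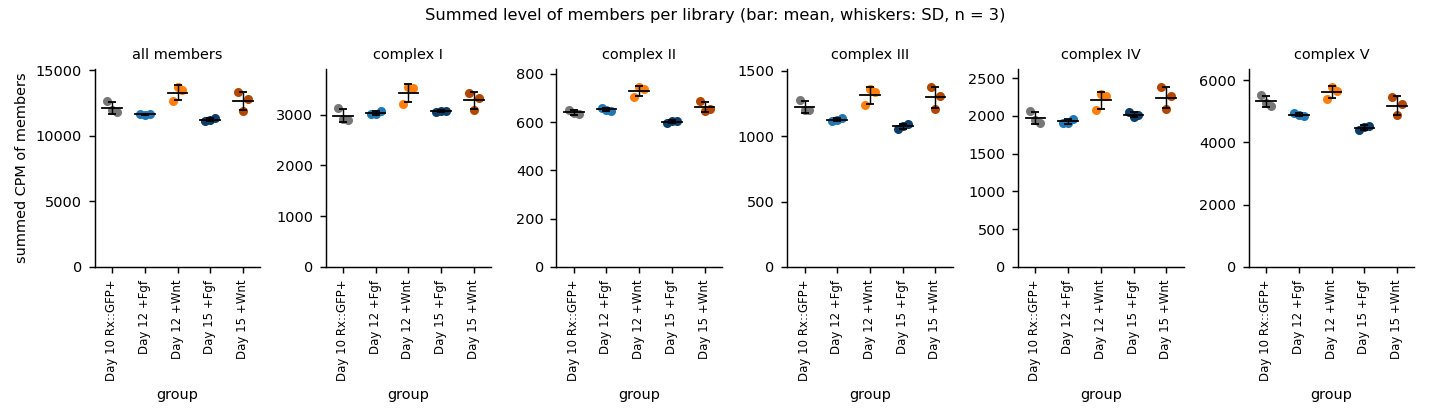
Summed CPM of the members in each library, for all members and for complexes I to V, with points for the 3 libraries of each of the 5 groups, a bar for the mean and whiskers for the SD. The sum over all members lay between 11916 and 13692 CPM in the 6 +Wnt libraries and between 11145 and 11679 CPM in the 6 +Fgf libraries.

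The change from Day 10 to Day 12 under +Wnt joins stimulus and time in culture, as no Day 12 group was unstimulated. Of 80 members, 51 rose and 6 fell, with a median difference of 0.20, whereas 30.6% of all tested entries rose and 29.6% fell (60.2% in either direction). The members that rose were 24 of 37 in complex I, 3 of 4 in complex II, 9 of 14 in complex IV and 12 of 17 in complex V. In complex III 3 of 8 rose, which is near the share of all entries, with a median of 0.03 and 4 members above 0. The members that fell were 4 of complex I, 1 of complex III and 1 of complex V. In 46 members every Day 12 +Wnt library was above every Day 10 library, against 32.3% of all entries, and in 6 members every one was below, against 31.9%. Member transcripts are short, with a median of 738.5 bases against 2304 over all entries with a length. Of 733 tested entries outside the members with transcripts of at most 1000 bases, 35.3% rose in the same comparison, with a median of 0.11. Whether transcript length has a part in the rise of the members was not tested.

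From Day 10 to Day 12 under +Fgf the members had no shared direction. Here 17 of 80 rose and 19 fell, the median was -0.02, and the shares of all tested entries were 27.9% and 27.8% (55.7% in either direction). Complex I had 12 higher and 6 lower of 37, of which the higher share is near that of all entries, and complex V had 2 higher and 7 lower of 17. Complex III had 3 lower of 8, complex IV 2 higher and 2 lower of 14, and complex II 1 in each direction. The balance depended on the scaling: with all columns scaled to the same total, 22 rose and 13 fell, beside 31.4% and 23.3% of all entries. After quantile normalization 16 rose and 10 fell, beside 24.6% and 27.8%. With RNA integrity in the fit, 15 rose and 6 fell, beside 20.5% and 19.99% of all entries.

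Compared directly at Day 12, members were lower in +Fgf than in +Wnt, with 52 of 80 lower, 3 higher and a median difference of -0.21. Among all tested entries 25.2% were lower and 26.3% higher (51.5% in either direction). The lower members were 22 of complex I, 2 of complex II, 6 of complex III, 9 of complex IV and 13 of complex V. All 3 +Fgf libraries were below all 3 +Wnt libraries in 52 members and above them in 6, against 29.4% and 30.9% of all entries. Of the short transcripts outside the members, 29.9% were lower, with a median of -0.08. The 3 members that were higher in +Fgf were Cox4i2, Ndufa1 and Ndufv1, and the call of Ndufv1 was lost in 8 of 18 alternative settings, those that omit Day 12 +Fgf replicate 1 or 3 or Day 12 +Wnt replicate 1 or 3 among them.

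At Day 15, 42 of 80 members were lower in +Fgf than in +Wnt and 10 were higher, with a median difference of -0.17. Among all tested entries 30.6% were lower and 38.0% higher (68.7% in either direction), and among the short transcripts outside the members 24.7% were lower and 34.2% higher. Complex I had 15 lower and 5 higher, complex II 2 lower, complex III 5 lower, complex IV 8 lower and 3 higher, and complex V 12 lower and 2 higher. The groups did not overlap in 42 members that were lower and 11 that were higher, against 32.6% and 40.4% of all entries. With RNA integrity in the fit, 35 members were lower and 1 was higher in Day 15 +Fgf, with a median of -0.25, and the shares of all entries were 20.2% lower and 25.7% higher.

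Maturation from Day 12 to Day 15 gave no shared direction of the members in either arm. In +Fgf, 14 of 80 rose and 18 fell, with a median of -0.03, whereas 27.2% of all entries rose and 29.9% fell (57.1% in either direction). In +Wnt, 16 rose and 27 fell, with a median of -0.07, whereas 32.5% of all entries rose and 35.5% fell (68.0% in either direction), so the share of members that fell was near that of all entries. Complex V had 1 higher and 7 lower in +Fgf and 3 higher and 8 lower in +Wnt, and complex I had 10 higher and 7 lower in +Fgf and 7 higher and 11 lower in +Wnt. These splits turned with the scaling: after quantile normalization 19 rose and 11 fell in +Fgf, beside 24.4% and 32.2% of all entries, and 25 rose and 9 fell in +Wnt, beside 29.0% and 41.0%. Scaling all columns to the same total gave 17 higher and 15 lower in +Fgf, beside 29.8% and 25.9% of all entries, and 22 higher and 16 lower in +Wnt, beside 37.0% and 29.5%. With RNA integrity in the fit, the +Fgf counts were 5 higher and 11 lower, beside 13.6% and 12.4%.

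**Figure D2:**
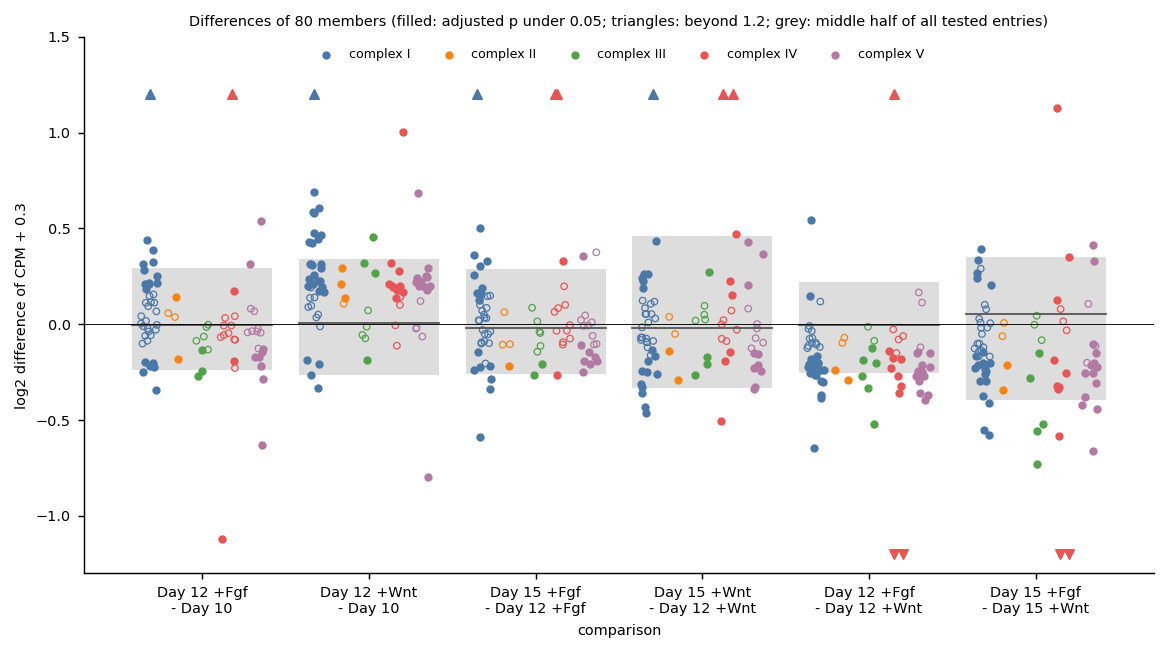
Log2 differences of the 80 tested members in 6 comparisons, colored by complex, filled where the adjusted p was under 0.05 and drawn as triangles where beyond 1.2, with the range from the first to the third quartile and the median of all 13845 tested entries in grey. The median member stood at 0.20 for Day 12 +Wnt minus Day 10 and at -0.21 and -0.17 for +Fgf minus +Wnt at Day 12 and Day 15.

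**Figure D3:**
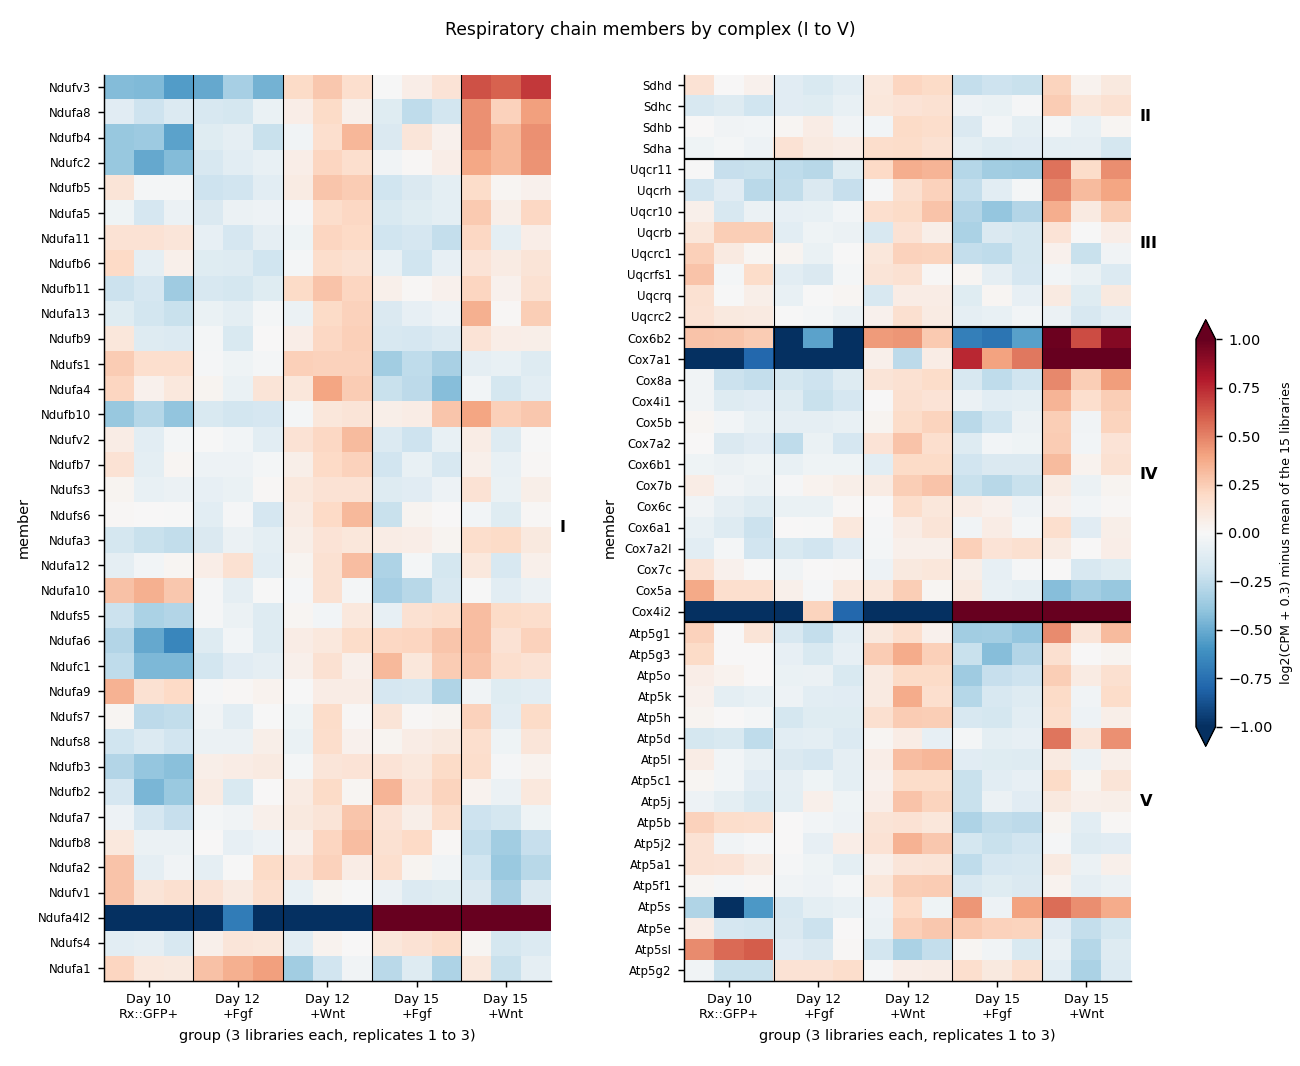
Each row is a tested member (1 is left out) and each column a library, 3 per group, with color for log2(CPM + 0.3) minus the member's mean over 15 libraries and rows grouped by complex I to V. Colors stop at 1 in either direction, and Ndufa4l2, Cox4i2 and Cox7a1 had group means that ranged over 6.84, 6.02 and 3.09 on this scale.

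Ndufv3 encodes a small accessory subunit of the complex I flavoprotein arm that has a long splice form, and it had the largest difference of complex I between the stimuli at Day 12. Its levels were 56.6, 56.4 and 51.9 CPM at Day 10, 53.7, 60.9 and 55.3 in Day 12 +Fgf and 87.4, 92.6 and 86.1 in Day 12 +Wnt. At Day 15 they were 76.4, 80.1 and 84.4 CPM in +Fgf and 119, 116 and 125 in +Wnt. The +Wnt libraries were above all libraries of the other groups at Day 12, and Day 15 +Wnt was above Day 15 +Fgf without overlap. Ndufv3 rose by 0.69 ± 0.06 from Day 10 to Day 12 under +Wnt (limma, adjusted p = 5.1e-08), and it was lower in +Fgf, with -0.65 ± 0.06 (adjusted p = 9.2e-08) at Day 12 and -0.58 ± 0.06 (adjusted p = 1.6e-07) at Day 15. It rose further to Day 15 in both arms, by 0.50 ± 0.06 in +Fgf and 0.44 ± 0.06 in +Wnt.

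Ndufa1, an X-linked membrane subunit needed for complex I assembly, was higher in +Fgf at Day 12, unlike most members. It stood at 93.6, 86.4 and 86.0 CPM at Day 10, 98.8, 103 and 107 in Day 12 +Fgf, 63.2, 70.3 and 78.6 in Day 12 +Wnt, 66.7, 73.6 and 64.8 in Day 15 +Fgf and 86.5, 69.1 and 75.6 in Day 15 +Wnt. Day 12 +Fgf was the highest group and did not overlap Day 12 +Wnt or either Day 15 group. Its difference between +Fgf and +Wnt was 0.54 ± 0.08 (adjusted p = 3.7e-05) at Day 12, and it fell from Day 12 to Day 15 in +Fgf by 0.59 ± 0.08 (limma, adjusted p = 1.4e-05). Its difference between Day 12 +Fgf and Day 10 was 0.21 ± 0.08, and that call was lost in 8 of 18 alternative settings, among them those without Day 10 replicate 2 or 3 and without Day 12 +Fgf replicate 2 or 3.

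Several of the core subunits of complex I bind the flavin or iron-sulfur clusters. Ndufs1, the largest of them, was at 159, 155 and 158 CPM in Day 12 +Fgf, 188, 187 and 187 in Day 12 +Wnt, 126, 134 and 127 in Day 15 +Fgf and 150.3, 152 and 146 in Day 15 +Wnt. The groups did not overlap on either day, and +Fgf was lower, with -0.25 ± 0.04 (adjusted p = 3.2e-05) and -0.21 ± 0.04 (adjusted p = 0.00010) in limma. Ndufs1 fell in both arms between Day 12 and Day 15, by 0.29 ± 0.04 in +Fgf and 0.33 ± 0.04 in +Wnt. Ndufs3 and Ndufv2, also core subunits, were lower in Day 12 +Fgf than in Day 12 +Wnt, with -0.18 ± 0.05 (adjusted p = 0.0086) and -0.27 ± 0.06 (adjusted p = 0.0016). Ndufs7 and Ndufs8, which carry the last clusters before ubiquinone, did not pass the test between +Fgf and +Wnt, with -0.10 ± 0.09 and -0.07 ± 0.07 at Day 12 and -0.05 ± 0.09 and -0.02 ± 0.07 at Day 15. Ndufv1, which holds the flavin, fell from Day 12 to Day 15 in +Fgf by 0.24 ± 0.06 (adjusted p = 0.0014), from 115, 111 and 117 to 99.8, 94.8 and 96.0 CPM.

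Among complex I members by symbol, Ndufb4, Ndufc2 and Ndufa6 rose most from Day 10 to Day 12 under +Wnt after Ndufv3 and Ndufa4l2. Ndufb4, Ndufc2 and Ndufa6 rose by 0.58 ± 0.08, 0.59 ± 0.05 and 0.61 ± 0.07, and were named after their values were seen. Ndufa10, an accessory subunit of the matrix arm, went the other way, with 110.2, 115 and 108 CPM at Day 10, 88.9, 84.4 and 89.5 in Day 12 +Fgf and 88.9, 99.5 and 88.7 in Day 12 +Wnt. It fell in both arms, by 0.34 ± 0.06 in +Fgf (limma, adjusted p = 8.1e-05) and 0.27 ± 0.06 in +Wnt (adjusted p = 0.00066), with no overlap with Day 10.

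In complex II, also an enzyme of the citric acid cycle, both membrane anchors were lower in +Fgf. Sdha, the flavoprotein, rose from Day 10 to Day 12 by 0.14 ± 0.04 in +Fgf and 0.21 ± 0.04 in +Wnt and fell to Day 15 by 0.22 ± 0.04 and 0.29 ± 0.04. The membrane anchor Sdhc was at 109.8, 112 and 107 CPM at Day 10, 113, 113 and 116 in Day 12 +Fgf, 133, 135 and 137 in Day 12 +Wnt, 119, 118 and 122 in Day 15 +Fgf and 147, 133 and 136 in Day 15 +Wnt. Both +Wnt groups were above both +Fgf groups, and Sdhc was lower in +Fgf, with -0.24 ± 0.04 (adjusted p = 0.00017) at Day 12 and -0.21 ± 0.04 (adjusted p = 0.00027) at Day 15. Sdhd, the other anchor, was lower in +Fgf, with -0.29 ± 0.05 (adjusted p = 0.00013) and -0.34 ± 0.05 (adjusted p = 1.2e-05). Sdha, at -0.07 ± 0.04 and 0.01 ± 0.04, and the iron-sulfur subunit Sdhb, at -0.10 ± 0.05 and -0.06 ± 0.05, did not pass the test between the stimuli.

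In complex III, Uqcr11 had the largest difference between the stimuli on both days. This small accessory subunit was at 100.4, 85.8 and 86.6 CPM at Day 10, 84.7, 83.1 and 92.7 in Day 12 +Fgf, 116, 130.2 and 128 in Day 12 +Wnt, 82.8, 79.2 and 78.7 in Day 15 +Fgf and 147, 115 and 139.7 in Day 15 +Wnt. Every +Wnt library was above every +Fgf library. The differences were -0.52 ± 0.08 (adjusted p = 5.8e-05) at Day 12 and -0.73 ± 0.08 (adjusted p = 6.9e-07) at Day 15 (limma). Uqcrh, the hinge subunit that binds cytochrome c1, was at 197, 212 and 199.7 CPM in Day 12 +Fgf, 232, 261 and 275 in Day 12 +Wnt, 199, 217 and 231 in Day 15 +Fgf and 327, 292 and 308 in Day 15 +Wnt. These groups did not overlap on either day, and +Fgf was lower, with -0.33 ± 0.07 (adjusted p = 0.00049) and -0.52 ± 0.07 (adjusted p = 2.7e-06). For Uqcrfs1, the Rieske iron-sulfur protein, the differences between the stimuli were -0.19 ± 0.07 at Day 12 and -0.00 ± 0.07 at Day 15, of which the first passed the test but lost its call when Day 12 +Fgf replicate 1 or 2 or Day 12 +Wnt replicate 1 or 2 was left out. Uqcrq, a small subunit next to cytochrome b, had the narrowest range of group means of all tested members, 0.13, and Cox7c, Cox6c, Cox6a1 and Sdhb came next at 0.15, 0.18, 0.20 and 0.20.

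In complex IV, Cox8a, the common form of subunit 8, was at 223, 197 and 194 CPM at Day 10, 202, 199 and 209 in Day 12 +Fgf and 249.7, 255 and 259.6 in Day 12 +Wnt. At Day 15 it was at 205, 191 and 199.6 CPM in +Fgf and 319, 272 and 306 in +Wnt, and the stimuli did not overlap on either day. Cox8a was lower in +Fgf, with -0.32 ± 0.06 (adjusted p = 0.00021) at Day 12 and -0.59 ± 0.06 (adjusted p = 1.6e-07) at Day 15. Cox5a, a nuclear-encoded subunit whose exons overlap those of Gm26631, was instead higher in +Fgf at Day 15, with 129.6, 115 and 114 CPM against 90.6, 96.0 and 93.7 in +Wnt and no overlap. That difference was 0.35 ± 0.07 (adjusted p = 0.00022), and it was 0.17 with an adjusted p = 0.27 when RNA integrity was in the fit. Cox7b, needed for assembly of complex IV, was lower in Day 15 +Fgf than in Day 15 +Wnt, with -0.26 ± 0.05 (adjusted p = 0.00049).

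Among the isoforms of complex IV, Cox4i2 had the widest range. It encodes the form of subunit 4 that is known to rise in low oxygen and in lung, and lies at chr2:152754173-152765037, plus strand (mm10). It was at 0.750, 0.669 and 0.611 CPM at Day 10, 2.35, 6.75 and 3.19 in Day 12 +Fgf and 1.195, 0.557 and 0.794 in Day 12 +Wnt. At Day 15 it was at 72.0, 56.7 and 60.8 CPM in +Fgf and 29.2, 27.4 and 29.4 in +Wnt. Each Day 15 library was above each earlier library, and Day 15 +Fgf was above Day 15 +Wnt without overlap. Replicate 2 had the highest level within Day 12 +Fgf. Cox4i2 rose from Day 12 to Day 15 by 3.97 ± 0.27 (adjusted p = 3.3e-09) in +Fgf and 4.69 ± 0.27 (adjusted p = 2.2e-10) in +Wnt (limma), and by 2.05 ± 0.27 (adjusted p = 7.7e-06) from Day 10 to Day 12 in +Fgf. The difference of 1.13 ± 0.27 (adjusted p = 0.0012) between the stimuli at Day 15 was 1.14 with an adjusted p = 0.08 with RNA integrity in the fit.

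Cox4i1, the ubiquitous form, was at 306 ± 11.1 CPM at Day 10, 289 ± 9.72 and 349 ± 20.2 in Day 12 +Fgf and +Wnt, and 307 ± 5.18 and 388 ± 23.8 in Day 15 +Fgf and +Wnt. Per length, Cox4i2 made up 0.226% ± 0.0170 of the pair at Day 10, 1.44% ± 0.859 in Day 12 +Fgf and 0.252% ± 0.111 in Day 12 +Wnt. By Day 15 its share was 17.4% ± 1.54 in +Fgf and 7.04% ± 0.262 in +Wnt. Cox4i1 shares exon sequence with Emc8 on the opposite strand, and whether strand was used in counting was not given in the sources used here.

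Cox7a1, the heart and muscle form of subunit 7a, was higher in +Wnt. It was at 0.681, 0.802 and 1.07 CPM at Day 10, 0.634, 0.828 and 0.575 in Day 12 +Fgf, 2.14, 1.67 and 2.18 in Day 12 +Wnt, 3.69, 2.82 and 3.11 in Day 15 +Fgf and 9.43, 6.41 and 8.42 in Day 15 +Wnt. Levels were low, and Day 15 +Wnt was highest without overlap with any other group. Cox7a1 rose from Day 12 to Day 15 by 1.84 ± 0.20 (adjusted p = 7.7e-07) in +Fgf and 1.86 ± 0.20 (adjusted p = 3.9e-07) in +Wnt, and it was lower in +Fgf, with -1.23 ± 0.20 (adjusted p = 6.7e-05) at Day 12 and -1.25 ± 0.20 (adjusted p = 3.1e-05) at Day 15. Summed levels of 6 muscle markers reached at most 19.9 CPM in any library, in Day 12 +Fgf, and were at most 0.842 CPM in Day 15 +Wnt, where Myod1 was at 0. Per length, Cox7a1 made up 0.571% ± 0.155 of the family at Day 10 and 4.54% ± 0.573 in Day 15 +Wnt. Cox7a2l, which joins complexes III and IV into supercomplexes, made up 55.8% ± 1.71 in Day 15 +Fgf and 49.2% ± 1.97 in Day 15 +Wnt. Cox7a2, the ubiquitous form, was lower in Day 12 +Fgf than in Day 12 +Wnt, with -0.36 ± 0.07 (adjusted p = 0.00031).

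Cox6b2, a form of subunit 6b known from testis, fell under +Fgf. It was at 16.1, 16.04 and 15.8 CPM at Day 10, 6.46, 8.98 and 6.39 in Day 12 +Fgf, 17.8, 17.96 and 15.9 in Day 12 +Wnt, 8.11, 7.83 and 8.97 in Day 15 +Fgf and 26.2, 20.9 and 25.1 in Day 15 +Wnt. Both +Fgf groups were below all libraries of the other 3 groups. Cox6b2 differed from Day 10 by -1.12 ± 0.12 (adjusted p = 1.3e-06) in Day 12 +Fgf and by 0.10 ± 0.12 in Day 12 +Wnt, which did not pass the test. It was lower in +Fgf than in +Wnt, with -1.22 ± 0.12 at Day 12 and -1.50 ± 0.12 at Day 15 (adjusted p = 3.7e-07 and 1.4e-08, limma). Its share of the pair per length was 8.401% ± 0.110 at Day 10, 4.02% ± 0.756 in Day 12 +Fgf and 10.6% ± 0.5004 in Day 15 +Wnt. Cox6b1, the ubiquitous form, passed the test between the stimuli at Day 15, with -0.15 ± 0.07 at Day 12 and -0.33 ± 0.07 (adjusted p = 0.00062) at Day 15, and the difference between the days, -0.18 ± 0.10, did not pass.

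Ndufa4l2 had the widest range of group means of all tested members and the largest rise from Day 12 to Day 15 in both arms. It resembles Ndufa4, a subunit first assigned to complex I and now placed in complex IV, and it is known as a target of the hypoxia-inducible factor HIF1. The gene lies at chr10:127514967-127517154, plus strand (mm10), and its exons overlap those of Shmt2 on the opposite strand. It was at 0.409, 0.468 and 0.535 CPM at Day 10, 1.39, 4.65 and 1.79 in Day 12 +Fgf and 3.27, 1.53 and 2.52 in Day 12 +Wnt. At Day 15 it reached 92.9, 82.8 and 88.2 CPM in +Fgf and 66.6, 65.9 and 84.5 in +Wnt. Each Day 15 library was far above each earlier one, and within Day 12 +Fgf replicate 2 was highest, as for Cox4i2. The rise from Day 12 to Day 15 was 5.09 ± 0.30 (adjusted p = 6.6e-10) in +Fgf and 4.77 ± 0.30 (adjusted p = 6.2e-10) in +Wnt (limma), and the first step from Day 10 was 1.76 ± 0.30 and 1.78 ± 0.30. Between the stimuli it did not pass the test, with -0.02 ± 0.30 at Day 12 and 0.29 ± 0.30 at Day 15. Shmt2, the overlapping gene, was at 167 ± 4.40 CPM at Day 10, 188 ± 7.65 in Day 15 +Fgf and 119 ± 12.2 in Day 15 +Wnt.

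Ndufa4 itself fell to Day 15 by 0.34 ± 0.07 in +Fgf and 0.36 ± 0.07 in +Wnt, with 187, 176 and 201 CPM in Day 12 +Fgf, 157, 153 and 136 in Day 15 +Fgf, 199, 242 and 219.6 in Day 12 +Wnt and 180.2, 163 and 171 in Day 15 +Wnt. Its Day 12 and Day 15 libraries did not overlap in either arm. Per length, Ndufa4l2 made up 0.155% ± 0.0265 of the pair at Day 10, 27.9% ± 1.80 in Day 15 +Fgf and 21.6% ± 2.55 in Day 15 +Wnt.

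**Figure D4:**
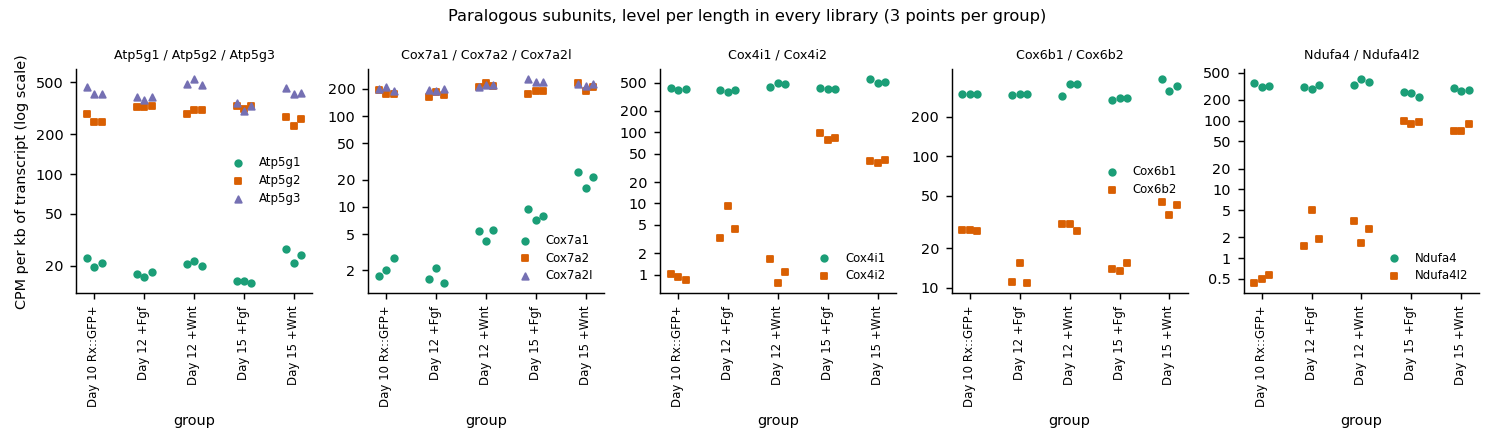
Level per kb of transcript on a log axis for 5 families of paralogous subunits, with 1 point for each of the 3 libraries in each of the 5 groups. Cox4i2 and Ndufa4l2 are highest in the Day 15 groups, where they make up 17.4% and 27.9% of their pairs in +Fgf and 7.04% and 21.6% in +Wnt.

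In complex V, Atp5b, Atp5a1 and Atp5c1 were lower in +Fgf than in +Wnt. Atp5b was at 1613, 1551 and 1543 CPM at Day 10, 1377, 1349 and 1325 in Day 12 +Fgf, 1502, 1515 and 1485 in Day 12 +Wnt, 1107, 1160.1 and 1143 in Day 15 +Fgf and 1400.5, 1280.0 and 1383 in Day 15 +Wnt. Day 15 +Fgf was the lowest group, without overlap with any other. Atp5b fell by 0.25 ± 0.04 from Day 12 to Day 15 in +Fgf (adjusted p = 7.2e-05), and it was lower in +Fgf than in +Wnt, with -0.15 ± 0.04 (adjusted p = 0.0053) at Day 12 and -0.25 ± 0.04 (adjusted p = 3.9e-05) at Day 15. Its difference of -0.22 ± 0.04 between Day 12 +Fgf and Day 10 passed the test but was -0.06 with an adjusted p = 0.27 after quantile normalization. Atp5a1, whose exons overlap those of Haus1, was lower in +Fgf, with -0.15 ± 0.04 (adjusted p = 0.011) at Day 12. Atp5c1, the central stalk subunit gamma, was lower in +Fgf, with -0.21 ± 0.05 (adjusted p = 0.0031) at Day 12 and -0.25 ± 0.05 (adjusted p = 0.00050) at Day 15.

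Atp5g1, Atp5g2 and Atp5g3 encode the same mature subunit c, which forms the rotating ring, with different import sequences, and they moved in different directions. Atp5g1 was at 107, 91.9 and 99.9 CPM at Day 10, 81.8, 77.8 and 85.1 in Day 12 +Fgf, 98.1, 103 and 94.3 in Day 12 +Wnt, 72.0, 72.3 and 70.2 in Day 15 +Fgf and 127, 99.7 and 114 in Day 15 +Wnt. Both +Fgf groups were below all other libraries. It was lower in +Fgf, with -0.27 ± 0.07 (adjusted p = 0.0060) at Day 12 and -0.66 ± 0.07 (adjusted p = 5.9e-07) at Day 15. Atp5g3 was at 331, 290.1 and 290.0 CPM at Day 10, 274, 259.7 and 273 in Day 12 +Fgf, 345, 374 and 342 in Day 12 +Wnt, 247, 215 and 236 in Day 15 +Fgf and 323, 291 and 295 in Day 15 +Wnt, and it too was lower in +Fgf, with -0.39 ± 0.06 (adjusted p = 5.0e-05) and -0.38 ± 0.06 (adjusted p = 4.1e-05).

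Atp5g2 was instead at 208, 182 and 182 CPM at Day 10, 235, 235 and 240.3 in Day 12 +Fgf, 211, 223 and 223 in Day 12 +Wnt, 239, 227 and 239.7 in Day 15 +Fgf and 198, 171 and 193 in Day 15 +Wnt. Every +Fgf library was above every Day 10 library, and at Day 15 +Fgf was above +Wnt without overlap. Atp5g2 rose from Day 10 by 0.31 ± 0.06 (adjusted p = 0.00022) in +Fgf and 0.20 ± 0.06 (adjusted p = 0.0063) in +Wnt, and was higher in Day 15 +Fgf by 0.33 ± 0.06 (adjusted p = 7.4e-05), or 0.27 with an adjusted p = 0.06 with RNA integrity in the fit. Its share of the family per length was 36.9% ± 0.103 at Day 10, 45.1% ± 0.655 in Day 12 +Fgf, 36.7% ± 1.13 in Day 12 +Wnt, 48.6% ± 1.03 in Day 15 +Fgf and 36.3% ± 1.18 in Day 15 +Wnt. The Atp5g3 share was 60.1% ± 0.0265 at Day 10, 49.1% ± 1.14 in Day 15 +Fgf and 60.2% ± 1.29 in Day 15 +Wnt. Atp5g1 counts little in these shares because its longest annotated transcript, of 4715 bases, was used as its length.

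Atp5s, also called coupling factor B, and its relative Atp5sl, known as an assembly factor of complex I, moved apart from Day 10. Atp5sl fell in both arms, from 22.1, 23.7 and 24.3 CPM to 14.6, 14.3 and 16.04 in Day 12 +Fgf and 14.0, 12.7 and 13.4 in Day 12 +Wnt. Neither group overlapped Day 10, and the differences were -0.63 ± 0.09 (adjusted p = 1.4e-05) and -0.80 ± 0.09 (adjusted p = 9.0e-07). Atp5s rose from 5.04, 2.81 and 4.13 CPM to 5.58, 5.86 and 5.94 in Day 12 +Fgf and 6.04, 7.24 and 6.09 in Day 12 +Wnt, by 0.54 ± 0.18 (adjusted p = 0.016) in +Fgf and 0.68 ± 0.18 (adjusted p = 0.0032) in +Wnt. The +Fgf call of Atp5s was lost without Day 10 replicate 2, at 0.33 with an adjusted p = 0.099.

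Whether the change from Day 12 to Day 15 differed between the stimuli was tested as an interaction. It passed in 18 of 80 members, 12 with a higher change in +Fgf and 6 with a lower one, against 27.0% and 20.9% of all tested entries (47.9% in either direction). Complex I had 6 higher and 2 lower, complex III 1 of each, complex IV 2 higher and 1 lower and complex V 3 higher and 2 lower. The strongest were Atp5e, the epsilon subunit of the synthase, at 0.68 ± 0.12 (adjusted p = 0.00014), Ndufa1 at -0.71 ± 0.12 (adjusted p = 0.00011) and Ndufb8, a membrane subunit often used as a marker of assembled complex I, at 0.63 ± 0.09 (adjusted p = 4.0e-05). Atp5e was at 112, 107 and 124 CPM in Day 12 +Fgf, 148, 145 and 144 in Day 15 +Fgf, 119, 146 and 149 in Day 12 +Wnt and 114, 105 and 109.8 in Day 15 +Wnt, so that it rose in one arm and fell in the other. The rise of Atp5e in +Fgf, 0.36 ± 0.08, was 0.12 with an adjusted p = 0.63 with RNA integrity in the fit. Ndufb8 was at 154, 145 and 148 CPM in Day 12 +Fgf, 170.0, 176 and 154 in Day 15 +Fgf, 158, 178 and 190.0 in Day 12 +Wnt and 129.8, 121 and 130.2 in Day 15 +Wnt, where it fell by 0.46 ± 0.07. Its exons overlap those of Gm20538 on the same strand. With RNA integrity in the fit 5 members passed, 2 higher and 3 lower, and the shares of all entries also dropped, to 15.8% and 12.0%. After quantile normalization 8 were higher and 14 lower, beside 28.5% and 20.9% of all entries, and with all columns scaled to the same total 7 and 8, beside 23.3% and 22.8%. With edgeR on the reads the counts were 7 and 8, beside 23.7% and 21.3%.

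Promoters of several of these members are printed because their genes belong to families that moved in different directions or had the largest differences between the stimuli. Each is the 250 bases before the annotated start (RefSeq, GRCm38.p6), read into the gene, and capitals mark matches on either strand to CCAAT, to the ETS motif CCGGAAG or to the NRF1 motif (GCGC, any 2 bases, GCGC). Cox7a1 lies at chr7:30183921-30184170 (plus strand) and Cox7a2 at chr9:79759854-79760103 (minus strand). The subunit c genes lie at chr11:96075632-96075881 (minus strand) for Atp5g1, chr15:102671048-102671297 (minus strand) for Atp5g2 and chr2:73911327-73911576 (minus strand) for Atp5g3. Ndufv3 lies at chr17:31519865-31520114 (plus strand) and Uqcr11 at chr10:80406822-80407071 (minus strand).
Atp5g1: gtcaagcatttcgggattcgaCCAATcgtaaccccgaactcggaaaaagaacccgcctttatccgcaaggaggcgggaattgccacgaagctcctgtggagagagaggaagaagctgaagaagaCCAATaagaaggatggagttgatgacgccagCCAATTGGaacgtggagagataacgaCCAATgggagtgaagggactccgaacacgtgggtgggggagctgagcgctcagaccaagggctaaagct
Atp5g2: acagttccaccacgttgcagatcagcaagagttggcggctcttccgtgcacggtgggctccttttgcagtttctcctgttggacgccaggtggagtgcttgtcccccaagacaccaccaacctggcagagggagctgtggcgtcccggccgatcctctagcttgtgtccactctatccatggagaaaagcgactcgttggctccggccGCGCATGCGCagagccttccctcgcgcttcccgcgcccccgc
Atp5g3: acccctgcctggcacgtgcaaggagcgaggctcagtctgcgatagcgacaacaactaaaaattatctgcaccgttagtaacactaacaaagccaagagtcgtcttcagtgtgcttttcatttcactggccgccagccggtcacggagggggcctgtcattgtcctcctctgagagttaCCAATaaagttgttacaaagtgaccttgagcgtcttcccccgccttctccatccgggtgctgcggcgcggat
Cox7a1: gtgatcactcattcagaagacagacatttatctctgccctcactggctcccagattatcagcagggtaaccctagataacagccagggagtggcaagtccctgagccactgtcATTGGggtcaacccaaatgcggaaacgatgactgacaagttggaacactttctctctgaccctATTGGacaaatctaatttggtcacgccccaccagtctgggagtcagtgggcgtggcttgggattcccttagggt
Cox7a2: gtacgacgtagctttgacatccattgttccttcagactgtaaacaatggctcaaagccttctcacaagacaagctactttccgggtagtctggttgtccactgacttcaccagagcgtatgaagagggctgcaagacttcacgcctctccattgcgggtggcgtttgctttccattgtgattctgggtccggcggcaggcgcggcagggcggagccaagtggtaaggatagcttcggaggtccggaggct
Ndufv3: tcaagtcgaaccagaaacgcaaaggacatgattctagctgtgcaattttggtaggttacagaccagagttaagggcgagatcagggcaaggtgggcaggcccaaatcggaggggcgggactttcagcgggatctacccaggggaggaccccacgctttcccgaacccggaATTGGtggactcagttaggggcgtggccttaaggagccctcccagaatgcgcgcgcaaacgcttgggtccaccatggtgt
Uqcr11: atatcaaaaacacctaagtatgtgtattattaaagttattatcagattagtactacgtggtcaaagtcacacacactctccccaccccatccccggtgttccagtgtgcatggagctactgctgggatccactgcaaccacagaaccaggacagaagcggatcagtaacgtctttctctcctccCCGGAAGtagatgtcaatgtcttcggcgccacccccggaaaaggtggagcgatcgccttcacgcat

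Of these 7 windows only that of Atp5g2 has the NRF1 motif, whose first base is 42 bases before the start, and it has no CCAAT. Whether the motifs go with the changes in level was not tested. Atp5g1 has 5 CCAAT matches, of which one pair overlaps, and Atp5g3 has 1. Uqcr11 has the ETS motif from 66 bases before the start, and Cox7a2 has none of the motifs. Of the 84 members, 69 had a promoter in the table. The NRF1 motif with AT between its parts was in 4 of them, 5.80%, against 0.877% of 27025 genes, and with any 2 bases between them, which includes it, in 14, 20.3%, against 5.64%. CCGGAAG was in 12, 17.4%, against 7.83%, and CCAAT in 31, 44.9%, against 37.5%. Member promoters had a median of 14 CG dinucleotides against 6 over all, so their base composition differs from that of the other genes. Among the members with no entry were Ndufs1, Sdhc, Ndufa4l2, Uqcrq, Cox8c, Uqcrb, Ndufb9, Cox6c, Atp5a1, Ndufa2, Cox4i2, Uqcrc2, Cox6a2 and Cox4i1.

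Other lists of mitochondrial genes were counted in the same fits. Among all entries 30.6% rose and 29.6% fell from Day 10 to Day 12 under +Wnt, 32.5% rose and 35.5% fell from Day 12 to Day 15 in +Wnt, and 38.0% were higher and 30.6% lower in Day 15 +Fgf than in Day 15 +Wnt. Of 14 assembly factors of complex I, 5 rose and 3 fell from Day 10 to Day 12 under +Wnt, with a median of 0.02, and at Day 15 7 were higher and 1 lower in +Fgf than in +Wnt. Of 23 tested assembly factors of complexes II to V, 8 rose and 5 fell under +Wnt, and 5 were higher and 7 lower in Day 15 +Fgf. Of 5 subunits and carriers outside the symbol rule (Cyc1, Cycs, Ndufab1, Atpif1 and Usmg5), 1 rose and 1 fell under +Wnt. Of 13 enzymes of the citric acid cycle, 2 rose and 6 fell from Day 10 to Day 12 under +Wnt and 1 rose and 7 fell from Day 12 to Day 15. Of 75 proteins of the mitochondrial ribosome, which makes the subunits encoded in the mitochondrion, 10 rose and 23 fell from Day 10 to Day 12 under +Wnt and 2 rose and 55 fell from Day 12 to Day 15, and 36 were higher and 5 lower in Day 15 +Fgf than in Day 15 +Wnt.

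Of 15 regulators of respiratory chain and mitochondrial genes, 1 rose and 10 fell in each arm from Day 10 to Day 12, when 27.8% of all entries fell in +Fgf and 29.6% in +Wnt. From Day 12 to Day 15, 1 rose and 8 fell in +Fgf and 3 rose and 10 fell in +Wnt, when 29.9% and 35.5% of all entries fell. Ppargc1a, the coactivator PGC-1 alpha of mitochondrial genes, was at 6.59 ± 0.984 CPM at Day 10, 5.33 ± 0.667 in Day 12 +Fgf, 7.97 ± 0.810 in Day 12 +Wnt, 4.33 ± 1.43 in Day 15 +Fgf and 18.9 ± 0.522 in Day 15 +Wnt, and it rose from Day 12 to Day 15 in +Wnt by 1.22 ± 0.18 (adjusted p = 1.7e-05). Tfam, which packs mitochondrial DNA and takes part in its transcription, was lower in Day 15 +Wnt, at 60.7 ± 1.85 CPM, than at Day 10, at 128 ± 2.65 CPM. Tfam fell from Day 12 to Day 15 in +Wnt by 0.56 ± 0.04 (limma, adjusted p = 5.2e-09). Nrf1, a transcription factor of respiratory genes, fell over the same step by 0.63 ± 0.06 (adjusted p = 3.8e-08). Of 19 glycolysis genes, 18 rose in each arm from Day 12 to Day 15, beside 27.2% of all entries in +Fgf and 32.5% in +Wnt. In Day 15 +Fgf, 13 of the 19 were lower and 1 higher than in Day 15 +Wnt. Ndufa4l2 and Cox4i2 also rose from Day 12 to Day 15, and a link to the glycolysis genes was not tested. Of 79 tested cytosolic ribosomal proteins, 52 fell and 2 rose from Day 10 to Day 12 under +Wnt, against 51 higher and 6 lower among the 80 members. Under +Fgf 69 of them fell, against 17 higher and 19 lower among the members, so the ribosomal proteins fell in both arms.

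**Figure D5:**
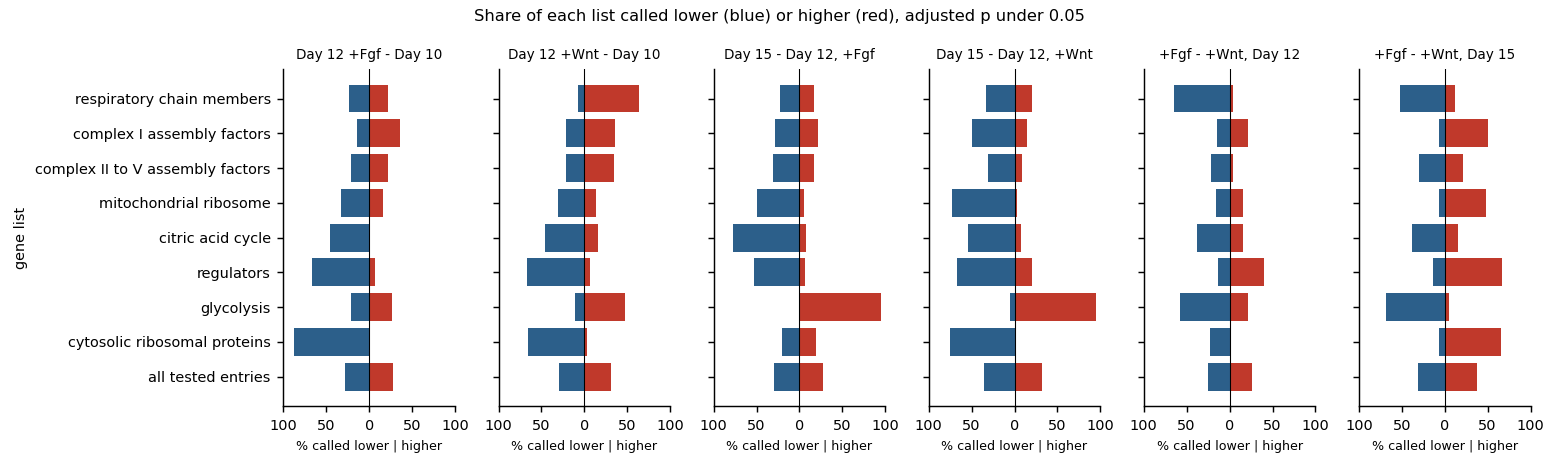
Percent of the tested genes of each list that were called lower (blue, left) or higher (red, right) in 6 comparisons, with all 13845 tested entries in the last row. In Day 12 +Wnt minus Day 10 the members stand to the right of 0, with 51 of 80 higher, and the cytosolic ribosomal proteins to the left, with 52 of 79 lower.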

How the data were processed

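RNA was sequenced from 15 libraries (TruSeq Stranded mRNA, 700 ng total RNA each). Per the labels and methods, the authors mapped reads to mm10 with TopHat2 2.0.8b, estimated counts per gene with Cuffdiff from Cufflinks 2.1.1 and normalized them with edgeR 3.2.4 (versions from the submitters' processing notes). The deposited signal values are CPM (read counts scaled to TMM-adjusted library sizes), and 100% of the values above 0 were whole multiples of 1 read (tolerance 0.01 reads), so reads were recovered from them. The unit was planned as CPM and the log2 test was kept.

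Group means of log2(CPM + 0.3) over all 15 libraries were fitted with limma 3.58.1 (R 4.3.3), with trend and Benjamini-Hochberg adjustment over 13845 entries of at least 1 CPM in 3 or more libraries. edgeR 4.0.16 (quasi-likelihood test on recovered reads), other pseudocounts, filters, scalings, a replicate block, RNA integrity as covariate and omission of each library were alternatives. The fits were also run on simulated data in which a small part of the entries changed, in Day 12 +Fgf only. That run could not test how the counts depend on the scaling, because far more entries differ in these data. The 7 comparisons share libraries, and so do their values. All 15 sample columns were mapped. Transcript lengths, positions and exon overlaps came from GENCODE M21 by RefSeq accession, the longest transcript per entry; 24 members overlap exons of another gene, 22 of them on the opposite strand, and 4 have named pseudogenes, so their reads are uncertain. Python 3.11.15, NumPy 2.4.6, pandas 2.3.3 and matplotlib 3.10.9 were used.

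Members and gene lists were chosen with earlier results of these data known. Genes were named by rule (in each comparison the 3 largest called increases and decreases, core subunits, isoform families, the widest and narrowest ranges, the highest levels), which gave 51 members with 1 left out, and others are marked where named. Replicates are biological per the labels. Same-numbered libraries were not treated as pairs. The values of the member left out are not reported here, although it stays in the counts.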

Additional observations from a re-analysis of the deposited data

Results flagged for a closer look

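The change from Day 12 to Day 15 differed between +Fgf and +Wnt in 18 members by the interaction test of limma (Benjamini-Hochberg adjusted p under 0.05, 80 members tested). Among all 13845 tested entries, 47.9% passed the same test, 27.0% higher and 20.9% lower, so members passed less often than entries at large. Values are the change in +Fgf minus the change in +Wnt on the log2(CPM + 0.3) scale. The members named here for this reason alone were chosen after their values were seen.

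The change was higher in +Fgf for 12 members, Atp5e (0.68), Ndufb8 (0.63), Ndufa2 (0.45), Ndufa7 (0.44), Cox5a (0.43), Ndufb2 (0.33), Cox7a2l (0.31), Ndufb11 (0.28), Ndufs6 (0.28), Atp5l (0.22), Atp5g2 (0.22) and Uqcrc2 (0.17). It was lower in +Fgf for 6 members, Ndufa1 (-0.71), Atp5g1 (-0.39), Atp5d (-0.32), Ndufa8 (-0.31), Uqcr10 (-0.28) and Cox8a (-0.26).

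With RNA integrity in the fit, Ndufa1 (-0.96), Atp5g1 (-0.61) and Ndufb8 (0.51) still passed, whereas Atp5e was at 0.44 with an adjusted p = 0.076. The interaction call was lost in 17 of 24 alternatives for Atp5l and in 12 of 24 for Atp5g2. Groups of 3 libraries were too small for the check of single libraries that stand apart.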

How the results depend on the processing

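Of 173 called differences of named members, 100 kept their direction and their call in every alternative, and 73 lost the call in at least 1. RNA integrity as a covariate moved the counts of called members to 21 for Day 12 +Fgf against Day 10 (15 higher, 6 lower), 16 for Day 15 against Day 12 in +Fgf (5 and 11) and 5 for the interaction (2 and 3), and from 52 to 36 for +Fgf against +Wnt at Day 15. Shares of all entries dropped too, from 27.9% higher and 27.8% lower to 20.5% and 19.99% for Day 12 +Fgf against Day 10. For Day 15 against Day 12 in +Fgf they went from 27.2% and 29.9% to 13.6% and 12.4%. RNA integrity was lowest in Day 15 +Fgf, and lower at Day 10 than at Day 12, so this covariate is partly confounded with these groups. When 1 library was left out, the counts ranged over 31 to 32 and 46 to 63 for Day 12 +Fgf and +Wnt against Day 10, 27 to 29 and 36 to 42 for Day 15 against Day 12 in +Fgf and +Wnt, 44 to 58 and 44 to 55 for +Fgf against +Wnt at Day 12 and Day 15, and 14 to 22 for the interaction. Over all alternatives, 40 to 61 members rose under +Wnt at Day 12, and 42 to 57 and 35 to 56 were lower in +Fgf at Day 12 and Day 15. With edgeR these counts were 51, 54 and 51. Where 40 members rose under +Wnt, without Day 12 +Wnt replicate 2, 27.7% of all entries rose. Where 61 rose, with all columns scaled to the same total, 37.3% of all entries did.

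Quantile normalization reversed Atp5a1 (to 0.11) for Day 12 +Wnt against Day 10, Atp5c1 (0.14), Atp5s (-0.037) and Cox7c (0.023) for Day 15 against Day 12 in +Wnt, and Cox7a2l (-0.015) and Sdha (-0.16) for +Fgf against +Wnt at Day 15. RNA integrity as covariate reversed Ndufa2 (-0.023) in that last comparison. The cause was not tested. Across the scalings the largest shift of the median of all entries was 0.0825, for Day 12 +Wnt against Day 10 with all columns scaled to the same total.

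Over 30 pairs of same-numbered libraries the correlation of deviations ranged from -0.25 to 0.24, with 7 pairs over 0.1. Over 60 pairs with different numbers it ranged from -0.33 to 0.29, with 14 over 0.1. Deviations within groups of 3 cannot show whether same-numbered libraries shared a batch. With the replicate number as a block, 35, 58, 30, 42, 55, 50 and 17 members were called, in the order Day 12 +Fgf and +Wnt against Day 10, Day 15 against Day 12 in +Fgf and +Wnt, +Fgf against +Wnt at Day 12 and Day 15, and the interaction. Depth limits Cox6a2, Cox7b2, Cox8b and Cox8c, which had at most 3 reads in any library.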
